A study of Bos taurus with 9 samples.

Results

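The microRNAs (miRNAs) miR-21 and miR-26, with a known part in cell survival, were followed in extracellular vesicles (EVs) of bovine follicular fluid from antral follicles of 3 size classes. Members were the deposited loci that the study listed as known bovine miRNA under the names miR-21, miR-26a, miR-26b or miR-26c, with every arm and every genomic copy kept. The names matched 5 of the loci listed as known or homologous miRNA (the listed miRNA loci below), out of 101889 deposited loci in all. These were miR-21-5p, miR-21-3p, miR-26a on chromosome 22, miR-26a on chromosome 5 and miR-26b, and 0 loci carried the name miR-26c.

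EVs are membrane-bound particles that cells release into the fluid around them, and total RNA from the EVs was made into small RNA libraries. Ovaries came from cows at an abattoir, and the age, strain and any treatment of the animals were not given in the sources used here. Fluid was pooled by follicle diameter, with small follicles of 3–5 mm, medium ones of 6–9 mm and large ones of more than 9 mm, and 3 libraries per size carried the numbers 1, 2 and 4 (small), 5, 6 and 8 (medium) and 10, 11 and 12 (large). Each library was 1 pool of many follicles, healthy and atretic together, and each collection of ovaries gave fluid of all 3 sizes. The sources did not say which libraries shared a collection, so differences between collections remain in the spread among the 3 libraries of a size, and the tests treat all libraries as independent.

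A mature miRNA is cut from 1 arm of a short RNA hairpin and guides silencing proteins to messenger RNAs that pair with its seed. The 5p arm of the miR-21 hairpin is its main product in most tissues, and it represses PDCD4, which restrains growth and favours cell death, while the 3p arm is usually degraded. miR-21 rises in granulosa cells after the ovulatory surge of luteinizing hormone in rodents and protects them from apoptosis. miR-26a and miR-26b share a seed, are encoded within genes of a family of small phosphatases, and have EZH2 among their targets.

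All 5 loci lay on the plus strand of the UMD3.1 genome. miR-21-5p covered 24 bases (chr19:11033079-11033102), and miR-21-3p covered 21 bases (chr19:11033117-11033137) beginning after a gap of 14 bases. The 22 bases of the first miR-26a locus were at chr22:11457915-11457936, those of the second at chr5:55977936-55977957, and those of miR-26b at chr2:107133408-107133429. In the RefSeq annotation of a later assembly (ARS-UCD2.0), matched here by gene name and chromosome, MIR26A-1 on chromosome 22 lies inside CTDSPL, MIR26A-2 on chromosome 5 inside CTDSP2 and MIR26B on chromosome 2 inside CTDSP1, all genes of small phosphatases. MIR21 on chromosome 19 lies inside no protein-coding gene of that annotation, and its nearest is VMP1. RefSeq gives MIR26C the same stretch as MIR26A-1, so start and end alone do not tell a miR-26c product from miR-26a. The strands of these RefSeq genes were not compared here. Exons and introns were not analysed here.

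Both copies of miR-26a received practically the same counts. In the small follicle EVs the chromosome 22 copy had 65809, 40726 and 40857 reads in libraries 1, 2 and 4, against 66489, 40795 and 40789 for the chromosome 5 copy. The chromosome 5 copy differed from the other by −0.166% to 1.48% per library. How reads that fit both places were assigned is not given in the sources used here, so the counts do not tell the copies apart, and miR-26a was taken as 1 measurement, represented by the chromosome 22 copy unless both are named.

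The total number of reads on deposited loci was similar between libraries, from 8941598 to 14664460, but the part that fell on the listed miRNA loci was not. It was 14.1% to 26.9% of the reads in small follicle EVs, 3.75% to 11.2% in medium ones and 1.43% to 5.65% in large ones, with large 12 well above large 10 and large 11. A count of 3 reads corresponded to between 2.05e-05% and 3.36e-05% of a library, and this floor, like the binomial intervals given with some shares, covers counting error only, because amplified reads are not independent molecules. In such bulk libraries, fewer vesicles of a given origin and less of the miRNA per vesicle cannot be told apart.

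Read counts of miR-21-5p were 67559, 29876 and 39378 in small 1, 2 and 4, then 5601, 7209 and 8257 in medium 5, 6 and 8, and 1048, 1773 and 9621 in large 10, 11 and 12. Those of miR-21-3p were 1733, 662 and 1334 in the small, 126, 222 and 195 in the medium, and 20, 14 and 107 in the large libraries. Thus the 3p arm rested on few reads in large 10 and large 11, whereas all other members had more than 500 reads in every library. miR-26a (chromosome 22) had 10000, 10671 and 18280 reads in medium and 4797, 4723 and 7292 in large follicle EVs. miR-26b had 21412, 6230 and 7601 reads in the small, 1716, 1539 and 2610 in the medium, and 581, 563 and 918 in the large libraries.

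As a share of all reads on deposited loci, all 5 members were lower in the larger follicles. miR-21-5p made up 0.394% ± 0.0636 of the reads in the small, 0.0619% ± 0.0156 in the medium and 0.0368% ± 0.0395 in the large libraries (mean ± SD, n = 3 per size here and for the shares that follow). miR-21-3p, the minor arm, fell from 0.0108% ± 0.00299 through 0.00159% ± 0.000476 to 0.000419% ± 0.000431. miR-26a fell from 0.435% ± 0.0293 through 0.115% ± 0.0491 to 0.0526% ± 0.00861. miR-26b fell from 0.0968% ± 0.0427 through 0.0173% ± 0.00628 to 0.00644% ± 0.00124. The small libraries lay above all medium and large libraries for each of the 4 miRNAs, and for miR-21-3p, miR-26a and miR-26b the medium libraries also lay above all large ones. The part of the reads on all listed miRNA loci together also separated the small libraries (at least 14.1%) from the rest (at most 11.2%). How many of the listed miRNA loci separated on this scale was not counted, so the separation is not particular to the members. For miR-21-5p, large 10 and large 11 lay below the medium libraries, whereas large 12 (0.0823%, 95% exact binomial interval 0.0807% to 0.0840%) lay above all 3 of them.

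Each share was tested for a slope over the rank of follicle size with a two-sided exact permutation test over the 1680 arrangements of the libraries, in which the smallest p that can occur is 0.00119. The trend was downward in all 5 loci, with p = 0.00476 (exact permutation test, 0.00476 after Benjamini-Hochberg adjustment over the 5 tests) for miR-21-5p and p = 0.00119 (exact permutation test, adjusted 0.00149) for each of the others. The falling shares moved together with the falling part of all listed miRNA given above. When the same shares were taken of the known and homologous miRNA reads only, miR-21-5p went from 1.94% ± 0.470 in small to 1.12% ± 0.397 in large follicle EVs with an adjusted p of 0.167 (exact permutation test), and miR-26a from 2.22% ± 0.907 to 2.48% ± 1.19 with an adjusted p of 0.716 and a trend of the opposite sign. On that scale miR-26b was at 0.468% ± 0.178 and 0.300% ± 0.139 (adjusted p = 0.288, exact permutation test), and miR-21-3p alone kept its trend, from 0.0508% ± 0.00194 through 0.0313% ± 0.0176 to 0.0129% ± 0.00332 (adjusted p = 0.0179, exact permutation test).

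To compare abundance among miRNA, counts of the listed miRNA loci were normalised by the TMM method of edgeR, which scales the libraries to a common level of most loci, and expressed as CPM of that set (normalised counts). miR-26a and miR-21-5p were among the abundant miRNA of the vesicles. By reads summed over the 9 libraries, miR-26a ranked 13th (chromosome 5) and 14th (chromosome 22), miR-21-5p 17th, miR-26b 48th and miR-21-3p 124th of the listed miRNA loci. Within single libraries the rank of miR-21-5p ranged from 11 to 36, and that of miR-21-3p from 102 to 185. With miR-26a counted once, the members made up 2.46% to 6.16% of the known and homologous miRNA reads of a library.

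Normalised counts of miR-21-5p were 20775, 25446 and 14327 in small 1, 2 and 4, 10269, 16423 and 6958 in medium 5, 6 and 8, and 5845, 12596 and 17017 in large 10, 11 and 12. The means were 20183 ± 5583 in the small, 11217 ± 4803 in the medium and 11819 ± 5626 in the large libraries (SD, n = 3 per size here and for the levels that follow). The 3 sizes overlapped, since medium 6 and large 12 both exceeded small 4.

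miR-21-3p separated the small from the large follicles. Its normalised counts were 533, 564 and 485 in the small, 231, 506 and 164 in the medium and 112, 99.5 and 189 in the large libraries. All 3 large libraries lay below all 3 small ones, while medium 6 fell within the range of the small libraries and medium 8 within that of the large. The means were 527 ± 39.5, 300.4 ± 181 and 133 ± 48.7, so the small libraries were close to each other and the medium ones were not.

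miR-26a, the most abundant member, showed no order with size. Its normalised counts (chromosome 22) were 20237, 34688 and 14865 in the small, 18334, 24310 and 15404 in the medium and 26752, 33555 and 12897 in the large libraries. Both the highest and the lowest of its group means, 24401 ± 10527 in large and 19349 ± 4539 in medium, lay within the range of the 3 small libraries (mean 23263 ± 10252). The chromosome 5 copy had means of 23344 ± 10265, 19466 ± 4562 and 24602 ± 10493. miR-26b had normalised counts of 6585, 5306 and 2766 in the small, 3146, 3506 and 2199 in the medium and 3240, 4000 and 1624 in the large libraries, where only small 1 and small 2 stood above the rest (means 4885 ± 1944, 2951 ± 675 and 2955 ± 1214).

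**Figure D1:**
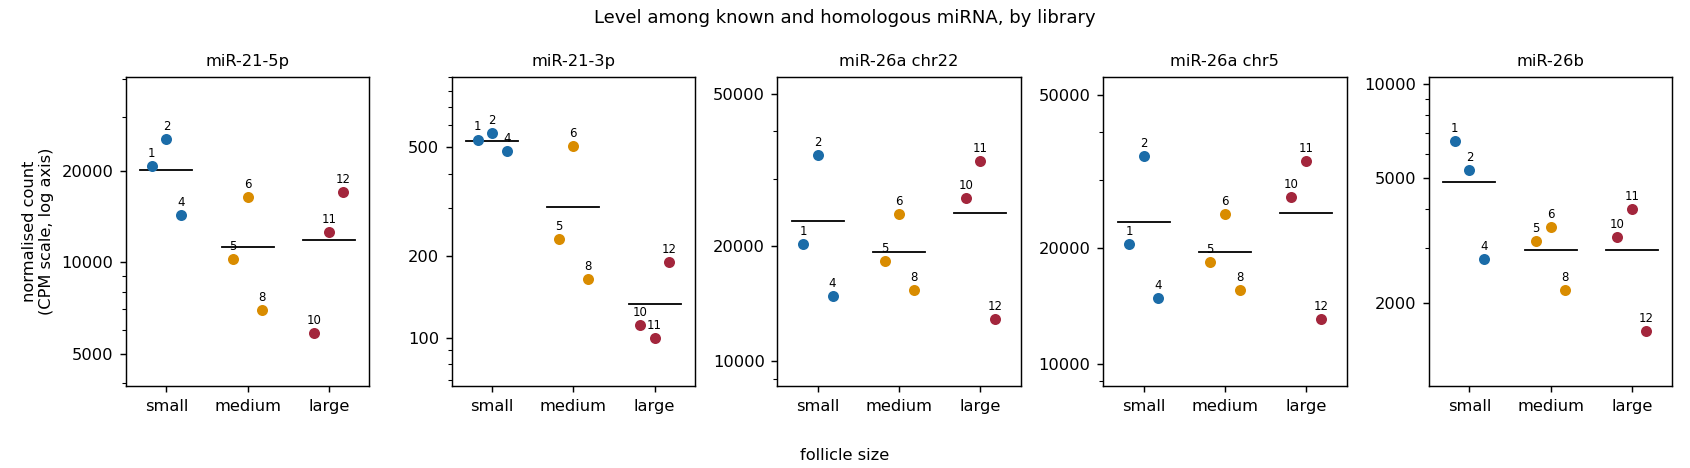
Normalised counts (TMM, CPM of the known and homologous miRNA loci, log axis) of the 5 loci in each library by follicle size, where points are libraries labelled with their number and horizontal lines are group means. The small and large libraries are apart for miR-21-3p, at 485 to 564 against 99.5 to 189, and overlap in the other 4 panels.

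The order of the means was the same in each size, with miR-26a first, then miR-21-5p, miR-26b and miR-21-3p. Divided by locus length, the mean normalised counts in small follicle EVs were 1057 per base for miR-26a, 841 for miR-21-5p, 222 for miR-26b and 25.1 for miR-21-3p, and in large follicle EVs they were 1109, 492, 134 and 6.35. miR-26a and miR-21-5p, the first neighbours in this order, overlapped in every size. miR-21-5p stood above miR-26b in all 9 libraries without overlap within a size, and miR-26b stood likewise above miR-21-3p.

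The sizes were then compared with edgeR's two-sided quasi-likelihood test in 1 fit of the 9 libraries, with Benjamini-Hochberg adjustment over all listed miRNA loci (FDR), and an FDR under 0.05 was taken as a call. Large against small follicle EVs gave 1 call among the 5 members, miR-21-3p, where 42.2% of the listed miRNA loci were called in either direction and 24.5% as lower in large follicle EVs. The call share among the members was thus no higher than among all loci tested. Without overlap between small and large libraries there was also 1 of the 5, against 53.0% of the listed miRNA loci.

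The level of miR-21-3p in large follicle EVs was 3.86-fold lower than in small ones, with a log2 fold change of −1.95 (SE 0.46, 95% interval −2.95 to −0.95, FDR = 0.00679 by edgeR's quasi-likelihood test). It had the 29th largest fall of the listed miRNA loci, whose median log2 fold change was −0.18. The call held in all 20 alternative analyses, including the omission of any single library. Log2 fold changes ran from −6.27 to −1.79 and the FDR from 0.000248 to 0.0318. Not all of the 20 were separate checks. The looser threshold (FDR under 0.1) and a filter on low counts that removed no listed locus both repeated the main fit. These alternatives could not have changed the call.

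The major arm of the same hairpin was not called. miR-21-5p had a log2 fold change of −0.77 (SE 0.45, 95% interval −1.75 to 0.21, FDR = 0.182, edgeR) between large and small follicle EVs, and leaving out single libraries moved it between −0.45 without large 10 (FDR = 0.430, edgeR) and −1.13 without large 12 (FDR = 0.0661, edgeR). miR-26b had nearly the same value, −0.73 (SE 0.42, 95% interval −1.64 to 0.19, FDR = 0.181, edgeR). Leaving out single libraries moved the value of miR-26b between −0.43 without large 12 and −1.01 without large 11, without a call. For miR-26a the log2 fold change was 0.07 (SE 0.43, 95% interval −0.86 to 1.00, FDR = 0.923, edgeR) on chromosome 22 and 0.08 (FDR = 0.916, edgeR) on chromosome 5. As a ratio of large to small, the interval of the chromosome 22 copy ran from 0.550 to 2.00.

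Between medium and small follicle EVs 0 of the 5 members were called, as were 0% of the listed miRNA loci. At an unadjusted p under 0.05 there were 44 loci in that comparison, edgeR's exact test called 8 loci higher and 8 lower, and DESeq2 called 19 higher and 9 lower, none of them a member. The log2 fold changes of medium against small were −0.85 for miR-21-5p (95% interval −1.83 to 0.13), −0.82 for miR-21-3p (−1.77 to 0.13), −0.73 for miR-26b (−1.64 to 0.19) and −0.27 for miR-26a (−1.20 to 0.67). The members whose medium and small libraries did not overlap numbered 0 of 5, against 28.5% of the listed miRNA loci. The differences of the first 3 were of about the size seen between large and small for miR-21-5p and miR-26b, and none was called (lowest FDR = 0.346, edgeR's quasi-likelihood test).

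Between large and medium follicle EVs, 0 of the 5 members and 10.4% of the listed miRNA loci were called, and 0 of 5 against 36.1% did not overlap. miR-21-3p was nearest to a call, with a log2 fold change of −1.13 (SE 0.45, 95% interval −2.12 to −0.14) that passed the threshold before adjustment, as did 80 loci in all, but not after it (FDR = 0.108, edgeR's quasi-likelihood test). Medium 6 weighed most on this value, which was −0.53 without that library (FDR = 0.460, edgeR) and −1.50 without large 12. The log2 fold change of miR-21-5p was 0.08 (95% interval −0.90 to 1.05), that of miR-26a 0.33 (−0.60 to 1.27) and that of miR-26b 0.00 (−0.91 to 0.91).

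**Figure D2:**
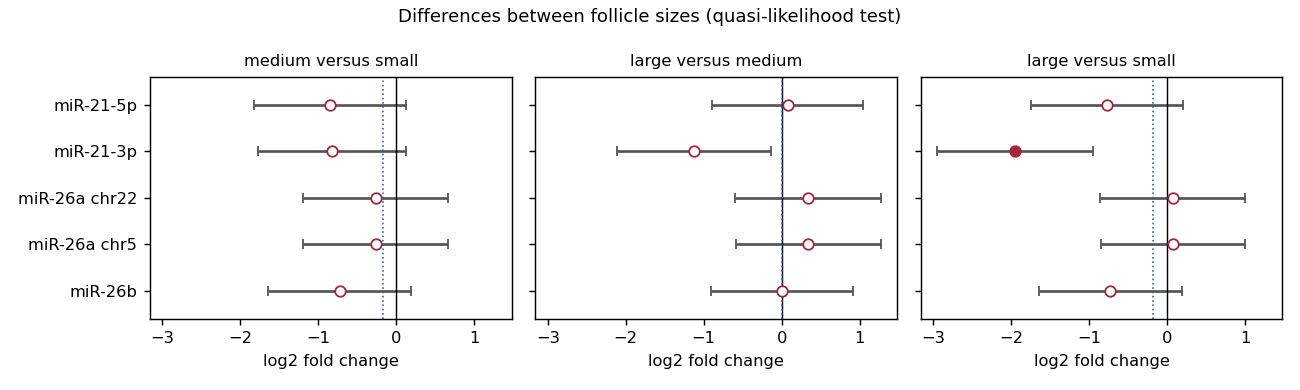
Log2 fold changes of the 5 loci in the 3 comparisons of follicle size (edgeR's quasi-likelihood fit), where points are estimates (filled where the FDR was under 0.05), bars are 95% intervals and the dotted blue line is the median of all known and homologous loci. The interval of miR-21-3p lies below 0 in large against small (−2.95 to −0.95) and in large against medium (−2.12 to −0.14, not called after adjustment), and those of both miR-26a copies lie on both sides of 0 in all 3 comparisons.

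The outcome depended on which reads the libraries were scaled to. When the libraries were scaled to all reads on deposited loci, all 5 members were called lower in the large against small comparison, as were 76.7% of the listed miRNA loci. The log2 fold changes were then −3.42 for miR-21-5p, −4.68 for miR-21-3p, −3.91 for miR-26b, −3.05 for miR-26a on chromosome 22 and −3.04 on chromosome 5 (FDR from 0.000474 to 0.00187, edgeR's quasi-likelihood test). The median of all listed miRNA loci moved to −3.06 on this scale. Relative to that median, miR-26a stood at 0.01, miR-21-5p at −0.36, miR-26b at −0.85 and miR-21-3p at −1.62, which is the order in which the members also stood relative to the median after TMM, apart from miR-21-5p and miR-26b at −0.59 and −0.55. All 5 were likewise called lower in medium than in small follicle EVs on this scale (log2 fold changes from −2.76 to −1.91, FDR = 0.0407 for each, edgeR), as were 23.7% of the listed miRNA loci, whose median was −1.80. Large against medium gave 0 calls among the members and 0% among the listed miRNA loci, with 76 loci at an unadjusted p under 0.05 and a median of −1.27.

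Ratios of members within a library do not depend on scaling, and 3 such ratios were tested for a slope over the rank of follicle size with the exact permutation test, with Benjamini-Hochberg adjustment over the 3. The first was the ratio of the miR-21 arms. For each read of miR-21-3p there were 39.0, 45.1 and 29.5 reads of miR-21-5p in small 1, 2 and 4, 44.5, 32.5 and 42.3 in medium 5, 6 and 8, and 52.4, 127 and 89.9 in large 10, 11 and 12. Small and medium libraries were alike, and all large libraries lay above them. The mean ratio was 37.9 ± 7.86 in the small, 39.8 ± 6.40 in the medium and 89.7 ± 37.1 in the large libraries, and the log2 ratio rose by 0.59 per size step (p = 0.0167, exact permutation test, adjusted p = 0.025). The adjusted p was 0.0857 without small 4 and 0.0589 without large 11, with slopes of 0.55 and 0.41.

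Given as a share of all miR-21 reads, the 3p arm was 2.50% (95% exact binomial interval 2.39% to 2.62%), 2.17% (2.01% to 2.34%) and 3.28% (3.11% to 3.45%) in the small libraries. In large 11 it was 0.783% (0.429% to 1.31%), resting on 14 reads, and in large 12 it was 1.10% (0.902% to 1.33%), resting on 107 reads. Both intervals lay below those of all small and medium libraries. The interval of large 10, 1.87% (1.15% to 2.88%) from 20 reads, overlapped those of all medium libraries and of small 1 and small 2, so the depth of that library cannot show whether its arms differed from theirs.

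**Figure D3:**
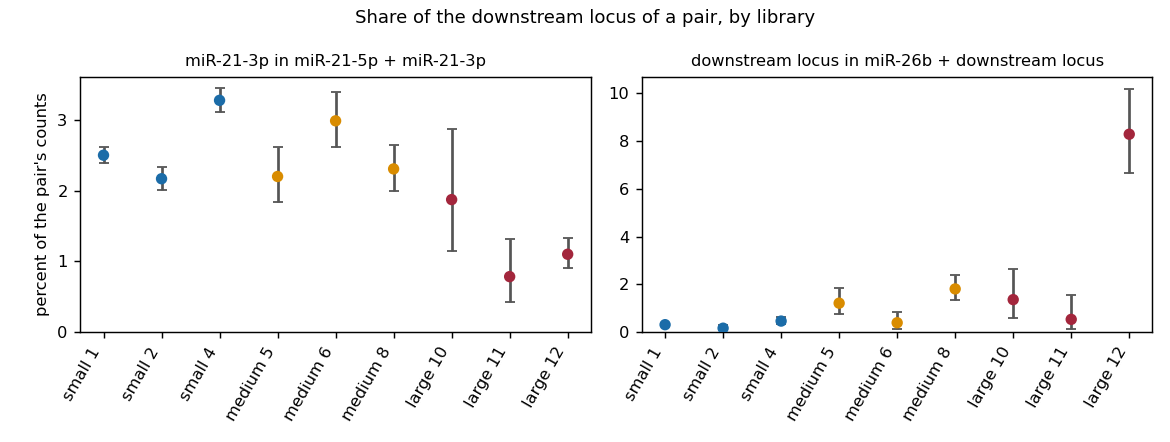
Share of the downstream locus among the reads of a pair of neighbouring loci (percent), for miR-21-3p next to miR-21-5p and for the unlisted locus next to miR-26b, where points are libraries by follicle size and bars are 95% exact binomial intervals for counting error. The 3p share of miR-21 is 2.17% to 3.28% in small and 0.783% to 1.87% in large libraries, and large 12 stands apart next to miR-26b at 8.29%.

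The second ratio, of miR-26a to miR-26b, compared 2 miRNAs with the same seed. It was 3.07, 6.54 and 5.38 in small 1, 2 and 4, 5.83, 6.93 and 7.00 in medium 5, 6 and 8, and 8.26, 8.39 and 7.94 in large 10, 11 and 12. The large libraries were close to one another and above all the rest, whereas small 1 was far below the other small libraries and the small and medium ranges overlapped. The means were 5.00 ± 1.76, 6.59 ± 0.660 and 8.20 ± 0.229, and the log2 ratio rose by 0.39 per size step (p = 0.00238, exact permutation test, adjusted p = 0.00714). Of the single omissions, that of large 11 took the adjusted p above the threshold (0.0589, with a slope of 0.39). With large libraries set against the other 6, in place of the size rank, the log2 ratio was higher by 0.55 in the large (adjusted p = 0.107, exact permutation test).

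The third ratio, of miR-21-5p to miR-26a, ran from 0.734 to 1.03 in the small, from 0.452 to 0.676 in the medium and from 0.218 to 1.32 in the large libraries. All medium libraries lay below all small ones, as did large 10 (0.218) and large 11 (0.375), but large 12 had the highest ratio of the 9 libraries. The slope of the log2 ratio was −0.46 per size step (p = 0.181, exact permutation test, adjusted p = 0.181). Large 12 decided this result, since without it the slope was −0.82 with an adjusted p of 0.00536 (exact permutation test).

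**Figure D4:**
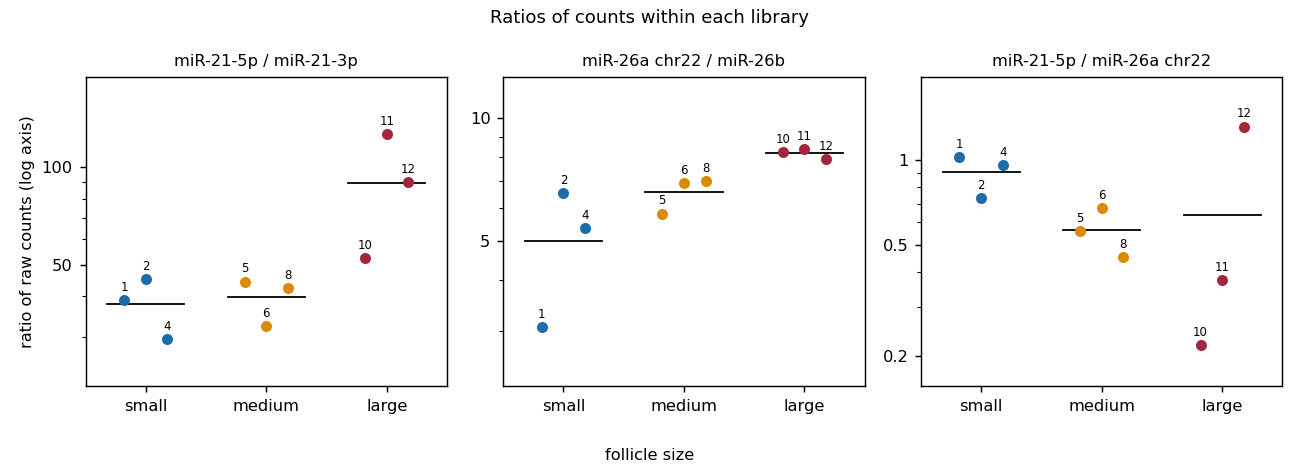
Ratios of raw counts within each library (log axes) for miR-21-5p to miR-21-3p, miR-26a (chromosome 22) to miR-26b and miR-21-5p to miR-26a, where points are libraries labelled with their number and lines are group means. The large libraries are highest in the first 2 panels, at 52.4 to 127 and 7.94 to 8.39, and spread from 0.218 to 1.32 in the third.

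Across the 9 libraries the 2 arms of miR-21 varied together more than miR-21 and miR-26 did. Pearson's r of log2 normalised counts, given as a description over 9 libraries that share the size groups and the same scaling, was 0.74 between miR-21-5p and miR-21-3p, 0.70 between miR-26a and miR-26b, 0.44 between miR-21-5p and miR-26b and 0.15 between miR-21-5p and miR-26a. The 5 loci most like miR-21-5p were miR-32 (0.81), miR-181d (0.81), miR-155 (0.79), the homologue of goat miR-181c-3p (0.76) and miR-21-3p itself. Of these, miR-181d and the homologue of goat miR-181c-3p were rare, with group means of 20.1 to 45.4 normalised counts and 0 in large 10. The loci most like miR-21-3p were miR-1839 (0.95), miR-335 (0.92), miR-130a (0.91), the homologue of pig miR-148b-5p (0.90) and miR-192 (0.90). All of these 5 had lower group means from small through medium to large follicle EVs, from 3281 through 1936 to 818 normalised counts for miR-1839, for instance. They were picked for likeness to miR-21-3p, whose means fell in the same order, so this is not a separate result. miR-26a was most like miR-98 (0.97), both let-7f loci (0.92 each), miR-30a-5p (0.88) and the homologue of goat miR-374a-3p (0.88). miR-26b was most like miR-195 (0.94), both miR-101 loci (0.92 and 0.91), the homologue of goat miR-340-5p (0.87) and let-7i (0.83).

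Other miRNAs are known to restrain growth or favour apoptosis, and 10 such loci were read in the same test. Of these, 2 were called lower in the large than in the small libraries and 0 were higher, where 24.5% of all listed miRNA loci were called lower and 42.2% in either direction. The share called lower in the list was thus no higher than among all loci tested. The loci called were miR-15a (log2 fold change −1.16) and miR-16a (−0.76), which repress BCL2 in other cells. The others, let-7g, miR-15b, miR-16b, miR-195, miR-497, miR-23a, miR-34a and miR-34c, had log2 fold changes from −1.43 (miR-23a) to −0.14 (miR-16b) without a call, and the median of the list was −0.68, against −0.18 for all listed miRNA loci. In both comparisons with the medium follicle EVs 0 of the 10 were called, with median log2 fold changes of −0.27 for medium against small and −0.39 for large against medium. Of all listed miRNA loci, 0% and 10.4% were called in these comparisons.

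Markers of cell types were read in the same normalised counts. Both arms of miR-202, which is typical of the gonads, were present in every library, with a sum of 17452 to 19062 in the small, 15395 to 26431 in the medium and 11578 to 34277 in the large libraries, and 0 of the 2 were called in any comparison. Of all listed miRNA loci, 42.2% were called in large against small, 0% in medium against small and 10.4% in large against medium. Of 5 names typical of blood cells, 4 were among the listed miRNA loci and miR-223 was not. Their sum was 490 to 2492 in the small, 1534 to 2932 in the medium and 7144 to 15499 in the large libraries. In large against small, miR-150, miR-142-5p and miR-486 were called higher (log2 fold changes 5.67, 2.25 and 3.29), while miR-451 was not (2.04). There were 44 higher calls among all listed miRNA loci in that comparison. In large against medium, miR-150, miR-142-5p and miR-486 were also called higher (log2 fold changes 3.69, 2.21 and 2.52), and miR-451 was not (1.53). There the higher calls among all listed miRNA loci numbered 14. In medium against small, 0 of the 4 were called. The 7 loci of mesenchymal or theca cell miRNA, led by miR-143, summed to 6904 to 24112 in the small, 3089 to 8632 in the medium and 5208 to 11228 in the large libraries. In large against small, 3 of them were called lower, where 24.5% of all listed miRNA loci were. The loci called were both genomic copies of miR-199a-3p and the homologue of goat miR-145-3p, while miR-143, miR-214 and both miR-199a-5p loci were not called. The copies of miR-199a-3p had nearly the same means in small, medium and large (686, 335 and 252 on chromosome 16, 698, 333 and 231 on chromosome 7). Their calls are thus hardly separate, and the share called in this list is overstated by counting both. No marker found was at 0 in any library, but some rested on very few reads. The homologue of goat miR-145-3p, 1 of the loci called lower, had a normalised count of 5.58 in large 10. miR-214 had 5.58 in large 10 and 7.10 in large 11, and miR-150 had 2.28 in medium 6. In large against small follicle EVs, where miR-21-3p was called lower, the blood cell markers thus stood higher. The mesenchymal or theca cell loci had a median log2 fold change of −1.27, with miR-199a-5p at −0.50 on chromosome 16 and 0.38 on chromosome 7. The part of either marker group in the result of miR-21-3p and in the arm ratio was not tested.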

How the data were processed

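Small RNA of follicular fluid EVs was measured in 9 libraries. After adapter removal, the authors mapped reads to UMD3.1 with BWA 0.7.5a, defined loci from the merged alignments of all samples, and deposited raw counts on the dense region of each locus, without normalization. Loci listed as miRNA had passed the authors' minimum mean count in at least 1 size. Counts were used as deposited. With edgeR 4.0.16 (limma 3.58.1, R 4.3.3), the 249 known and homologous loci were normalised (TMM) and tested by the quasi-likelihood method without a filter (common dispersion 0.1645). Levels are CPM, and correlations used a prior count of 2. Permutation tests used scipy 1.17.1, numpy 2.4.6 and pandas 2.3.3 under Python 3.11.15, and plots matplotlib 3.10.9. The alternatives comprised DESeq2 1.42.0 and its size factors, edgeR's exact test, other scalings, all deposited loci, filterByExpr, an FDR under 0.1, 2 groups only, 1 locus per name, other share denominators and the omission of each library. The test was checked on simulated counts of the 249 loci for large against small. It called 4 of 25 loci given a log2 change of 1, 21 of 25 given a log2 change of 2, and 2 unchanged loci. Differences of the size seen for miR-21-5p and miR-26b would thus mostly be missed. Named loci were the members, deposited loci within 100 bases of them, the listed miRNAs and the 5 loci most alike. The members and lists were chosen with earlier results of these data known. A further list of miRNAs is not reported here.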

Additional observations from a re-analysis of the deposited data

Results flagged for a closer look

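Outside the listed miRNA, 2 deposited loci lay within 100 bases of a member, both downstream and on the same strand, and both had, summed over the 9 libraries, more than the 3 reads that a count of 0 allows. In single libraries this did not hold for the first in large 11, nor for the second in all medium libraries, large 10 and large 11. The first, of 22 bases, was at chr2:107133443-107133464, 13 bases after miR-26b, and had 280 reads over the 9 libraries. Its counts were 66, 10 and 35 in small, 21, 6 and 48 in medium and 8, 3 and 83 in large follicle EVs. Its share of the reads of this locus and miR-26b together was 0.160% to 0.458% in small and 0.388% to 1.81% in medium follicle EVs, and it was 1.36%, 0.530% and 8.29% in large 10, 11 and 12 (95% exact binomial interval in large 12 6.66% to 10.2%). The second, of 17 bases, was at chr5:55977979-55977995, 21 bases after the chromosome 5 copy of miR-26a, and had 53 reads. Its counts were 21, 4 and 18 in small, 0, 0 and 2 in medium and 0, 1 and 7 in large follicle EVs, at most 0.0945% of the reads of the pair. Neither was compared between sizes.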

How the results depend on the processing

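Of the 20 alternatives, filterByExpr removed no listed locus and repeated the main fit. The number of members called in large against small follicle EVs was 1, with these exceptions. With the total count of all loci, TMM over all loci and a test of all loci, it was 5, 5 and 5. In medium against small it was 5, 5 and 4 with these scalings and otherwise 0. In the order of these scalings, the log2 fold change of miR-26a in large against small turned to −3.05, −4.73 and −4.70 (chromosome 22) and −3.04, −4.72 and −4.69 (chromosome 5), and in large against medium to −1.13, −1.77 and −1.73 (chromosome 22) and −1.13, −1.76 and −1.73 (chromosome 5). That of miR-21-5p in large against medium turned to −0.75, −1.13 and −1.11, to −0.0793 with the total count of the set and to −0.0856 with 2 groups only, and that of miR-26b to 0.0259 with 1 locus per name. Of reads on known and homologous loci, the slope of the share per size step was −0.41 percentage points for miR-21-5p and −0.0840 for miR-26b, no longer past the threshold, and reversed to 0.13 for both miR-26a copies. With large set against the other 6 libraries, the log2 ratio of miR-26a to miR-26b differed by 0.55, no longer past the threshold. The cause was not tested. Over all known and homologous loci, the calls in large against medium, 14 higher and 12 lower, were 24 and 28 with edgeR's exact test and 31 and 32 with DESeq2, and there were 0 without medium 5, medium 6 or large 11. The 44 higher and 61 lower calls in large against small were 28 and 35 without small 1 and 31 and 38 without large 11.

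Leaving out 1 library gave log2 fold changes of miR-21-3p from −1.42 (without medium 6) to −0.52 (without medium 8) in medium against small and from −1.50 to −0.53 in large against medium, and of miR-26b from −0.90 to −0.45 (without small 1) in medium against small. In large against small they ran from −0.23 to 0.47 (miR-26a chromosome 22) and from −0.22 to 0.48 (chromosome 5), in medium against small from −0.46 to 0.14 for both copies, and in large against medium from −0.28 to 0.46 for miR-21-5p and from −0.28 to 0.30 for miR-26b. The libraries whose omission turned the sign of miR-26a were small 1, small 4, large 10 (chromosome 22 only) and large 11 for large against small and small 2 for medium against small. The slope of the log2 ratio ran from 0.41 to 0.71 for the miR-21 arms, from 0.24 to 0.49 for miR-26a to miR-26b and from −0.82 to −0.22 for miR-21-5p to miR-26a. No paired analysis was possible because the groups share no replicate numbers and the sources do not say which libraries came from the same collection. Depth limited the arm share in large 10 and large 11, with 20 and 14 reads of miR-21-3p.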
